A study of Mus musculus with 1019 samples.

Results

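The cells described here are regulatory T cells (Tregs) of visceral fat that held at least 1 UMI of Tnfrsf9 or of Irf8. A UMI (unique molecular identifier) stands for 1 captured mRNA molecule. Of 644 cells sorted from visceral adipose tissue (VAT), 70 met the rule, and the series held 1019 cells in all. They were chosen by the measured UMIs of those 2 genes, so the levels of Tnfrsf9 and Irf8, and any classes of cells formed by their UMIs, are given as a description. The 70 cells are called Tnfrsf9/Irf8 cells below and are set against the 574 other VAT cells.

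The cells came from male B6 mice aged 20 months. All were sorted as live (DAPI-negative) cells that stained for the beta chain of the T cell receptor, for CD4 and for CD25, and were profiled by inDrops, a droplet method that reads the ends of mRNAs captured on poly(A) tails. The VAT cells form libraries 2 and 3 (330 and 314 cells) and came from epididymal fat digested with collagenase and dispase. The spleen cells form 1 library of 375 cells, from spleens dissociated mechanically without those enzymes. The labels do not say how many mice gave each library or whether the VAT libraries came from different mice, so each library is 1 sample and no p-value can be given. A ratio was read as a difference only where both VAT libraries showed it.

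Tnfrsf9 encodes CD137, a costimulatory receptor of the TNF receptor family that T cells place on their surface after their antigen receptor is engaged. CD137 signals through TRAF adaptors to the NF-kB transcription factors. Irf8 encodes a transcription factor of the interferon regulatory factor family, best known for its part in the development of dendritic cells, macrophages and B cells. VAT Tregs are a tissue population that depends on the transcription factor PPARg and on the cytokine IL-33, and that is known for its influence on inflammation and insulin sensitivity in fat.

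The rule took 48 of 330 cells in VAT library 2, a share of 14.5% (95% exact Clopper-Pearson interval 10.9 to 18.8). It took 22 of 314 cells in VAT library 3, a share of 7.01% (4.44 to 10.4). In the spleen library the same rule took 73 of 375 cells, or 19.5%. Deeper cells have more chances to show a UMI, so each cell was also thinned to 800 UMIs by random draw. The shares then were 9.70% and 4.46% in the VAT libraries and 12.5% in the spleen library. Library 2 thus held the larger share of the VAT pair with and without thinning. All intervals here cover counting error only.

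Tnfrsf9 chose most of the cells. In VAT library 2, 31 cells held Tnfrsf9 alone, 11 held Irf8 alone and 6 held both. In VAT library 3 these numbers were 14, 5 and 3. The cells of the rule therefore fell mostly at its edge: 30 of the 48 and 14 of the 22 had exactly 1 UMI of the pair, and the other VAT cells had 0 by definition. A cell with no UMI is not shown to lack the mRNA. Over all cells, Tnfrsf9 reached 173 CPM (raw UMIs per 1000000 UMIs of the library) in VAT library 2, 54.7 CPM in VAT library 3 and 188 CPM in the spleen library. Irf8 reached 55.7, 43.7 and 34.9 CPM in the same libraries.

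**Figure D1:**
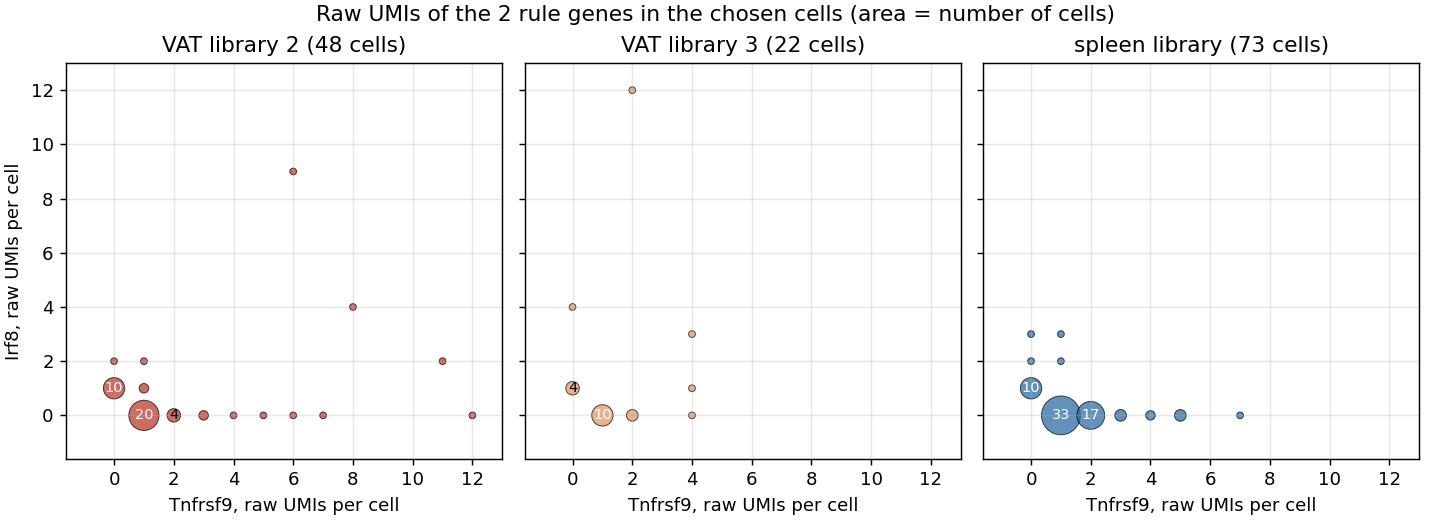
Raw UMIs of Tnfrsf9 (horizontal axis) and Irf8 (vertical axis) in each cell taken by the rule, by library; the area of a circle stands for the number of cells at that position. The most common position in each library is 1 UMI of Tnfrsf9 without Irf8. The cells with the most Irf8 in the VAT libraries (9 and 12 UMIs) also held Tnfrsf9.

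A few cells carried many of the molecules. The highest Tnfrsf9 count in 1 cell was 12 UMIs in VAT library 2, 4 in VAT library 3 and 7 in the spleen library. The highest Irf8 count was 9, 12 and 3 UMIs in the same libraries. In the VAT libraries, Irf8 was found in 16.2% and 17.6% of the cells with Tnfrsf9, against 3.75% and 1.68% of the cells without Tnfrsf9. In the spleen library the shares were 3.28% of the cells with Tnfrsf9 and 3.82% of the cells without it. The overlap rests on 6, 3 and 2 cells, and the VAT cells with both genes were deep, with a median of 2169 UMIs in library 2 and 3793 in library 3. After thinning, 1 cell in each VAT library and 0 in the spleen library held both.

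The Tnfrsf9/Irf8 cells were somewhat deeper than the other cells. Leaving the 2 rule genes out, their median was 1812 UMIs per cell against 1532 in the other cells of VAT library 2, and 1787 against 1593 in VAT library 3. The ratios of medians were 1.18 and 1.12. Of the Tnfrsf9/Irf8 cells, 8.33% and 22.7% lay in the deepest 5% of their library, against 4.61% and 3.77% of the other cells. At 800 UMIs per cell they showed a median of 497.5 genes against 485 in library 2, and 487.5 against 471 in library 3. Ribosomal protein genes took 16.7% against 17.7% of their UMIs in library 2 and 18% against 19.5% in library 3. No mitochondrial genes were listed in the table. Of the cell barcodes, 2 were shared by the VAT libraries and 1 by VAT library 3 and the spleen library. None of them belonged to a cell taken by the rule in both libraries. Whether any was taken by the rule in only 1 library was not counted. Whether some deep cells were doublets was not tested.

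The cells carried the markers of Tregs. Raw UMIs of 5 Treg markers made up 54 per 10000 UMIs in the Tnfrsf9/Irf8 cells against 33.3 in the other cells of library 2, and 43.2 against 30.4 in library 3. Foxp3, the defining transcription factor of Tregs, was detected before thinning in 24 of the 48 and 9 of the 22 Tnfrsf9/Irf8 cells. UMIs of 5 markers of VAT Tregs stood at 95.9 against 83.6 per 10000 in library 2 and at 86.4 against 83.3 in library 3. UMIs of 5 general T cell markers stood at 18.4 against 20.1 and at 14.6 against 16.5 per 10000. Within this T cell list Cd3e, a subunit of the T cell receptor complex, had 11 and 0 raw UMIs in the Tnfrsf9/Irf8 cells, against 78 and 60 in the other cells. These sums come from 48 and 22 cells against 282 and 292. In library 2 its thinned ratio without the cell with the most Cd3e was 1.03 (0.313 to 2.70). Against other cells matched for raw UMIs its ratios were 0.686 and 0.

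Because Irf8 is a gene of myeloid cells and B cells, markers of those cells were counted as well. Of the B cell markers, Cd79a, Cd79b and Ms4a1 had 0 UMIs in the Tnfrsf9/Irf8 cells of both VAT libraries. The 6 markers of antigen presenting cells had 7 UMIs in 3 cells of library 2 and 2 UMIs in 1 cell of library 3, with H2-Aa, H2-Ab1, H2-Eb1 and Flt3 at 0. The 6 myeloid markers stood at 2.99 against 1.89 per 10000 in library 2 and at 3.22 against 2.11 in library 3. Nearly all of these were Cst3, which encodes the protease inhibitor cystatin C, with 26 UMIs in library 2 and 15 in library 3. Lyz2, Adgre1, Tyrobp and Fcer1g were at 0 in the Tnfrsf9/Irf8 cells of both libraries. The VAT cells with the most Irf8 (9 and 12 UMIs) held 21 and 43 UMIs of T cell and Treg markers, and 0 and 1 of antigen presenting and myeloid markers. The library 3 cell with 4 Irf8 UMIs held only 2 UMIs of T cell and Treg markers. The library 2 cell with 7 Tnfrsf9 UMIs held 16 such UMIs and 5 UMIs of Cd74, a marker of antigen presenting cells. Foxp3 was at 0 in both of these cells.

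The working name of these cells, activated VAT Tregs, was matched only in part. Its 2 further markers were Ier3, an immediate early gene, and Mt2, a metallothionein that binds zinc and copper. Thinned UMIs of Ier3 stood at 1.3 against 0.887 per 10000 in library 2 and at 2.27 against 0.942 in library 3, on 5 and 4 UMIs. Without the cell with the most Ier3 in each library, its ratios were 0.90 (0.171 to 3.03) and 1.90 (0.363 to 6.31). Mt2 stood at 0.521 against 0.798 per 10000 in library 2 and at 2.84 against 0.642 in library 3. In library 3, 1 cell held 23 of the 28 raw Mt2 UMIs of the Tnfrsf9/Irf8 cells. Without that cell the Mt2 ratio in library 3 was 0.927 (95% interval 0.022 to 6.03). Cd69, a classical early activation marker, was lower in the Tnfrsf9/Irf8 cells, with a call that held in 5 of 16 alternatives (below). Rgs1 was lower as well. Other genes linked to activation lay on the higher side. Tnfrsf4 and Myc passed the 1.5-fold rule, and Il2ra and Nr4a1 lay above 1 in both libraries without a call (below). As these genes did not share the same side, the cells are called by the genes of the rule.

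Across the transcriptome few genes differed in the same direction in both VAT libraries. Of 769 genes with at least 100 thinned UMIs over both VAT libraries, 21 (2.73%) exceeded the other cells by 1.5-fold or more in both libraries, and 24 (3.12%) fell short of them by 1.5-fold or more in both. With a minimum of 40 UMIs, 107 of 2081 genes (5.14%) were higher and 185 (8.89%) were lower. The 21 genes were 25.6% of the 82 genes higher in library 2 and 19.3% of the 109 genes higher in library 3. The 24 genes were 24.5% of the 98 lower in library 2 and 15.1% of the 159 lower in library 3, and 27 genes differed 1.5-fold in opposite directions. Across the 769 genes, which are not independent replicates, Pearson's r of the log2 ratios of the libraries was 0.06. With each library's log2 ratios centred on the median gene, the split was 29 higher and 21 lower. Single calls depended on the random draw: with 3 other draws, 9 to 13 of the 21 higher genes and 5 to 8 of the 24 lower genes were called again.

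Calls that held in all 4 draws, in raw UMIs and in the mean share of UMIs over cells were rarer still, a selection made after the values were seen. They were Il10, Tnfrsf4, Atp5g3, Eif5a and H2afz on the higher side and Rab2a on the lower side. When cells matched for raw UMIs were required as well, Il10, Tnfrsf4 and Eif5a were left on the higher side and Rab2a on the lower side. With the minimum of 40 UMIs, 9 genes held on the higher side, among them Batf and Bcl3, and 16 on the lower side, among them Klf2. The sections below go through the genes by their role and give the level in each library. A further setting left out every cell with a UMI of a B cell, antigen presenting or myeloid marker, which kept 28 and 13 Tnfrsf9/Irf8 cells and 200 and 193 other cells. There Eif5a (2.47 and 2.55), Atp5g3 (2.62 and 2.90), Batf, Klf2 and Rab2a kept their calls, while Il10, Tnfrsf4, H2afz, Il2rb and Bcl3 lost theirs in library 3. Levels are UMIs per 10000 after thinning, and they are not divided by transcript length, so they are compared between cells and not between genes.

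**Figure D2:**
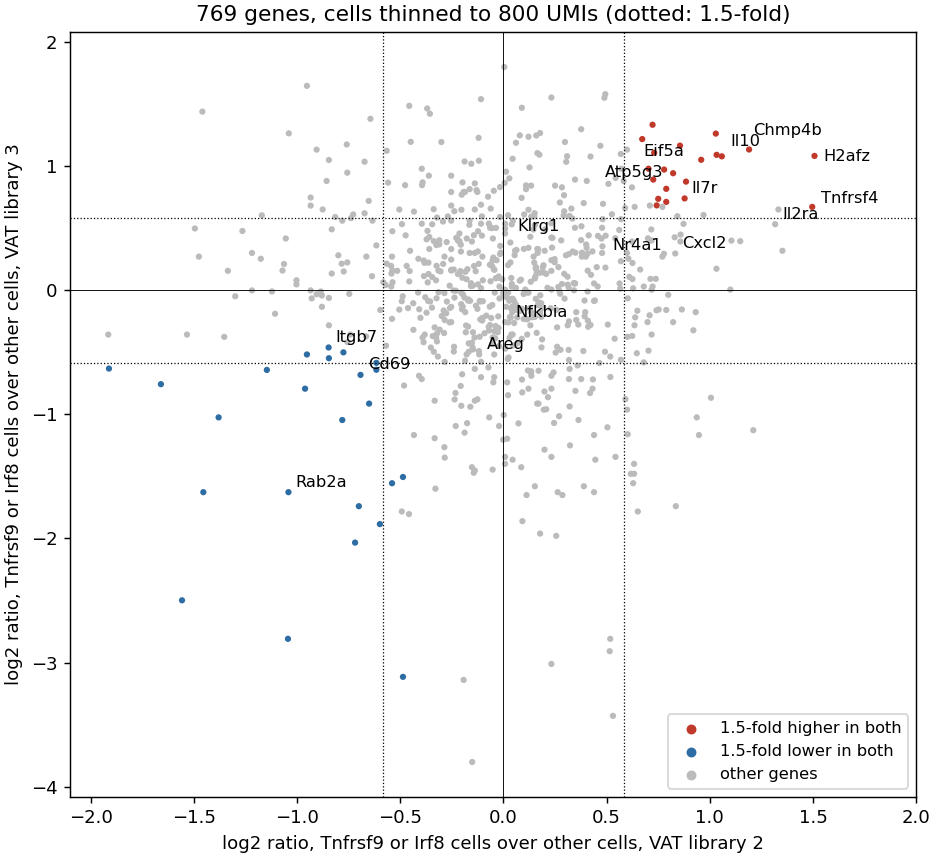
Log2 ratio of thinned UMIs (0.5 added to each count), Tnfrsf9/Irf8 cells over other cells, for 769 genes in VAT library 2 (horizontal axis) and VAT library 3 (vertical axis). Red and blue points are the 21 genes higher and the 24 lower in both libraries by the plain ratio, so that some blue points lie inside the dotted 1.5-fold lines; the cloud shows no common slope (r = 0.06).

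Tnfrsf4 led the receptors of the TNF family. It encodes OX40 (chromosome 4, 156013843 to 156016612 on GRCm38, plus strand), a costimulatory receptor that activated T cells and Tregs carry. Tnfrsf9 itself lies on the same chromosome (150914562 to 150946102, plus strand), and Irf8 on chromosome 8 (120736358 to 120756694, plus strand). Tnfrsf4 stood at 14.1 against 5.01 UMIs per 10000 in library 2, a ratio of 2.81 (95% interval 1.99 to 3.92). In library 3 it stood at 9.09 against 5.86, a ratio of 1.55 (0.862 to 2.61). The share of cells with a Tnfrsf4 UMI was 45.8% against 29.1% in library 2 and 27.3% against 32.2% in library 3, so in library 3 the higher level came from more UMIs per positive cell. With other cells matched for raw UMIs, the ratios were 3.09 (2.17 to 4.48) and 2.42 (1.5 to 4.03). Over the main setting and 16 alternatives the ratio lay between 2.54 and 5.13 in library 2 and between 1.10 and 2.93 in library 3. Without the 1 Tnfrsf9/Irf8 cell with the most Tnfrsf4 in each library, it was 2.55 and 1.42. Without the cells that held markers of other cell types, it was 2.98 (1.95 to 4.46) and 1.31 (0.547 to 2.68). Its call held in 13 of the 16 alternatives.

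No other TNF receptor passed 1.5-fold in both libraries. Tnfrsf18, which encodes GITR, another costimulatory receptor of Tregs, stood at 6.77 against 4.65 per 10000 in library 2 and at 6.82 against 5.05 in library 3. Its ratios of 1.45 (0.909 to 2.25) and 1.35 (0.678 to 2.45) had intervals that include 1. Tnfrsf1b, which encodes TNF receptor 2, gave ratios of 1.45 and 0.931. Cd27, a costimulatory receptor, had log2 ratios of 0.01 in library 2 and 0.96 in library 3, on 8 and 6 thinned UMIs. Tnfrsf25, the receptor of TL1A, had log2 ratios of 0.88 and -0.04, on 5 and 1 UMIs. Of the 14 listed TNF receptor genes these 5 were measured, and 1 passed the rule, beside 5.14% of all 2081 genes. The summed UMIs of the list were 1.8 times the level of the other cells in library 2 (1.45 to 2.21) and 1.36 times in library 3 (0.961 to 1.88).

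Of the receptor chains for interleukin 2, the growth factor on which Tregs depend, Il2rb passed the rule and Il2ra did not. Il2rb, which encodes the signalling beta chain, stood at 4.43 against 1.64 per 10000 in library 2 (ratio 2.70, 1.43 to 4.92) and at 3.41 against 1.63 in library 3 (2.10, 0.724 to 5.0). Il2rb was found in 29.2% against 11% of the cells of library 2 and in 27.3% against 11% of the cells of library 3. Its call held in 14 of the 16 alternatives, and without cells that held markers of other cell types its ratio in library 3 was 0.619 (0.0150 to 3.79) on 1 UMI. Il2ra encodes CD25, the alpha chain used in the sort. It stood at 20.6 against 8.29 per 10000 in library 2 (2.48, 1.88 to 3.25) and at 12.5 against 8.82 in library 3 (1.42, 0.869 to 2.20), which missed the 1.5-fold rule in library 3.

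The remaining core genes of Tregs gave smaller or divided ratios. Foxp3 stood at 5.99 against 4.43 per 10000 (ratio 1.35, 0.819 to 2.14) and at 3.98 against 3.12 (1.27, 0.494 to 2.76). Ctla4, which encodes an inhibitory receptor, was above the other cells in library 2 (1.55, 1.05 to 2.24) and not in library 3 (0.843, 0.356 to 1.71). Of 11 measured core genes, 7 lay above 1 in both libraries, and 2 of them (Il2rb and Tnfrsf4) passed the 1.5-fold rule while Nrp1 was lower; over all 2081 genes, 30.1% lay above 1 in both libraries, 5.14% were called higher and 8.89% lower. The list's median log2 ratio was 0.56 in library 2 and 0.40 in library 3, beside medians of 0.04 and 0.11 over all genes with at least 40 UMIs.

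Il10 was among the VAT Treg genes that passed the rule. It encodes interleukin 10, an anti-inflammatory cytokine (chromosome 1, 131019845 to 131024974, plus strand). Il10 stood at 15.9 against 7.67 UMIs per 10000 in library 2 (ratio 2.07, 1.52 to 2.79) and at 14.8 against 7.11 in library 3 (2.08, 1.32 to 3.16). It was found in 33.3% against 19.5% of the cells of library 2 and in 27.3% against 19.2% of the cells of library 3. Against matched cells the ratios were 3.25 (2.33 to 4.60) and 1.90 (1.24 to 2.96). The UMIs were bunched: 1 cell held 25 of 153 raw UMIs in library 2 and 1 cell held 19 of 66 in library 3. Without these cells the ratios were 1.91 (1.38 to 2.60) and 1.34 (0.749 to 2.24). The Il10 call held in 14 of the 16 alternatives. It was lost with the rule applied after thinning, where the ratios were 1.48 (0.983 to 2.15) and 2.49 (1.48 to 3.97). It was also lost without cells that held markers of other cell types, where they were 1.85 (1.24 to 2.70) and 1.43 (0.598 to 2.95).

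The genes best known in VAT Tregs had ratios nearer to 1. Il1rl1, which encodes ST2, the receptor of IL-33, had ratios of 1.05 (0.751 to 1.44) and 1.04 (0.623 to 1.64). Areg, which encodes the repair factor amphiregulin, had ratios of 0.916 (0.686 to 1.20) and 0.687 (0.448 to 1.01). Klrg1, an inhibitory receptor of terminally differentiated T cells and VAT Tregs, stood at 40.4 against 31.8 per 10000 in library 2 (1.27, 1.06 to 1.51) and at 44.9 against 31.8 in library 3 (1.41, 1.10 to 1.78). Pparg passed the rule in both libraries (1.73 and 1.66), but on 5 and 2 UMIs and in 6 of the 16 alternatives only. Of 14 measured genes of the list, 3 (Pparg, Il10 and Batf) were higher in both libraries and 0 were lower, beside 5.14% and 8.89% of all 2081 genes. The list's median log2 ratio was 0.25 in library 2 and 0.31 in library 3.

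Nr4a1 encodes an orphan nuclear receptor whose mRNA follows antigen receptor signals. It stood at 56.5 against 40.2 UMIs per 10000 in library 2 (ratio 1.41, 1.21 to 1.63) and at 43.8 against 32.4 in library 3 (1.35, 1.05 to 1.71). It was found in 81.2% against 73.8% and in 95.5% against 69.5% of the cells. These thinned ratios stayed under 1.5-fold in both libraries. Against other cells matched for raw UMIs the Nr4a1 ratios were 1.62 and 1.51. Without its top cell the thinned ratios were 1.38 (1.19 to 1.61) and 1.27 (0.975 to 1.62). Cxcl2, which encodes a neutrophil chemokine, gave 1.77 (1.45 to 2.15) and 1.33 (0.949 to 1.82). Without the 1 cell with the most Cxcl2 in each library these were 1.56 and 0.972. Egr1, an immediate early transcription factor, gave 1.08 and 2.09, and 0.738 and 1.25 without its top cell.

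The transcription factors Batf and Bcl3 had high ratios on few UMIs. Batf, an AP-1 factor that works with IRF proteins in T cells and in the differentiation of tissue Tregs, stood at 2.60 against 0.665 per 10000 in library 2 (3.92, 1.57 to 9.32) and at 1.70 against 0.557 in library 3 (3.06, 0.560 to 11.1). Its call held in 15 of 16 alternatives, on 10 and 3 thinned UMIs, and without its top cell the ratios were 3.6 and 3.21. Bcl3, an atypical member of the IkB family, had ratios of 2.74 (0.946 to 7.14) and 2.21 (0.417 to 7.58), and kept its call in 14 of 16. Nfkb1, which encodes the p105 and p50 proteins of NF-kB, had ratios of 1.36 (0.684 to 2.53) and 2.79 (1.13 to 6.08). Nfkbia, the abundant feedback inhibitor of NF-kB, had ratios of 1.01 (0.878 to 1.17) and 0.831 (0.661 to 1.03). Of 14 measured genes in the list of adaptors and NF-kB, 10 lay above 1 in both libraries, beside 30.1% of all genes. Of these 14, 1 (Bcl3) was past 1.5-fold and 0 were lower, a share near the 5.14% called higher among all genes. The list's median log2 ratio was 0.46 in library 2 and 0.40 in library 3. Its summed UMIs, which Nfkbia dominates, stood at 1.04 and 0.992 times the level of the other cells.

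Single genes of growth and of the cell cycle passed the rule. Eif5a, a translation factor that carries hypusine (chromosome 11, 69916714 to 69921958, minus strand), kept its call in all 16 alternatives. It stood at 10.9 against 5.67 UMIs per 10000 in library 2 (ratio 1.93, 1.33 to 2.75) and at 10.2 against 5.05 in library 3 (2.02, 1.16 to 3.34). It was found in 43.8% against 31.9% and in 54.5% against 32.2% of the cells. Without its top cell the ratios were 1.83 and 1.89, against 1.91 and 1.34 for Il10 and 2.55 and 1.42 for Tnfrsf4. It was the 1 called gene among 13 measured translation factors, whose median log2 ratio was 0.09 in library 2 and -0.24 in library 3 and whose summed UMIs stood at 1.04 and 0.907 times the level of the other cells.

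H2afz encodes the histone variant H2A.Z (chromosome 3, 137864487 to 137866922, plus strand). It stood at 17.4 against 6.16 per 10000 in library 2 (2.83, 2.08 to 3.82) and at 11.4 against 5.48 in library 3 (2.07, 1.23 to 3.34). It was found in 47.9% against 30.1% and in 50% against 28.1% of the cells. Against cells matched for raw UMIs its ratio was 3.52 (2.52 to 5.02) in library 2 and 1.02 (0.658 to 1.59) in library 3. Without cells that held markers of other cell types it was 3.97 (2.75 to 5.67) and 1.03 (0.325 to 2.52). Ncl, which encodes the nucleolar protein nucleolin, had ratios of 1.79 (1.23 to 2.57) and 2.19 (1.25 to 3.63), and matched ratios of 1.84 and 1.26. Its call held in 10 of 16 alternatives, and it was the 1 called gene of 6 measured nucleolar genes. Myc, a regulator of growth, had ratios of 2.49 and 2.21 on 11 and 4 UMIs, and 0.652 in library 3 against matched cells. Of 6 measured cell cycle genes 2 (H2afz and Tubb5, a tubulin) passed the rule. Tubb5 kept its call in 7 of 16 alternatives, with 0.743 in library 3 against matched cells. The list's summed UMIs were 1.62 times (1.37 to 1.92) and 1.48 times (1.14 to 1.89) the level of the other cells. These sums were 0.471% and 0.403% of the UMIs of the Tnfrsf9/Irf8 cells, and H2afz alone gave 17.4 and 11.4 UMIs per 10000. Of the 26 listed genes, 9 had 0 raw UMIs in the Tnfrsf9/Irf8 cells. Atp5g3, a subunit of the mitochondrial ATP synthase, had ratios of 1.73 and 1.84, which were 1.18 and 1.35 without its top cell and 1.27 and 2.37 against matched cells.

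Klf2 and Rab2a were lower in the Tnfrsf9/Irf8 cells in all 16 alternatives. Klf2 encodes a transcription factor that keeps T cells resting and lets them circulate through lymphoid tissue (chromosome 8, 72319033 to 72321656, plus strand). Before thinning it had 9 and 0 UMIs in the Tnfrsf9/Irf8 cells, against 102 and 85 in the other cells. After thinning it stood at 1.04 against 2.35 per 10000 in library 2, a ratio of 0.443 (0.117 to 1.20). In library 3 it was at 0 against 1.76. Taking a floor of 3 counts for the Tnfrsf9/Irf8 cells of library 3, it was at least 1.03-fold lower there, while the exact interval of the ratio ran from 0 to 1.25. The matched ratios were 0.499 (0.197 to 1.17) and 0 (0 to 0.295). Of 5 measured genes of lymphoid homing and rest, Klf2 and Foxo1 were lower in both libraries, and Il7r, which encodes the receptor of interleukin 7, was higher (1.82 and 1.59), with a call that held in 9 of 16 alternatives.

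Rab2a, a small GTPase of transport between the endoplasmic reticulum and the Golgi (chromosome 4, 8535644 to 8607778, plus strand), was also lower with raw UMIs, mean shares and matched cells. It had 10 and 4 raw UMIs in the Tnfrsf9/Irf8 cells against 122 and 114 in the other cells, and thinned ratios of 0.445 (0.140 to 1.09) and 0.218 (0.00542 to 1.26). Cd69 stood at 8.33 against 13.7 per 10000 in library 2 (0.610, 0.410 to 0.880) and at 7.39 against 12.3 in library 3 (0.601, 0.316 to 1.04). Its side was the same but the size near the edge of the rule: the call held in 5 of 16 alternatives, with matched ratios of 0.695 and 0.751. Rgs1, a regulator of G protein signals in activated lymphocytes, had 12 and 1 raw UMIs against 95 and 88, and matched ratios of 0.544 and 0.0889. Without its top cell the thinned ratios were 0.444 (0.117 to 1.21) and 0 (0 to 1.16). Itgb7, an integrin chain of gut homing, had ratios of 0.534 (0.260 to 0.990) and 0.664 (0.211 to 1.60), and matched ratios of 0.521 and 0.444. Pdcd4, an inhibitor of translation, had ratios of 0.534 and 0.390 with intervals that include 1. Dgka, a diacylglycerol kinase that damps antigen receptor signals, had 0.334 (0.106 to 0.809) and 0.218 (0.00542 to 1.26), but 1.10 in library 3 against matched cells.

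**Figure D3:**
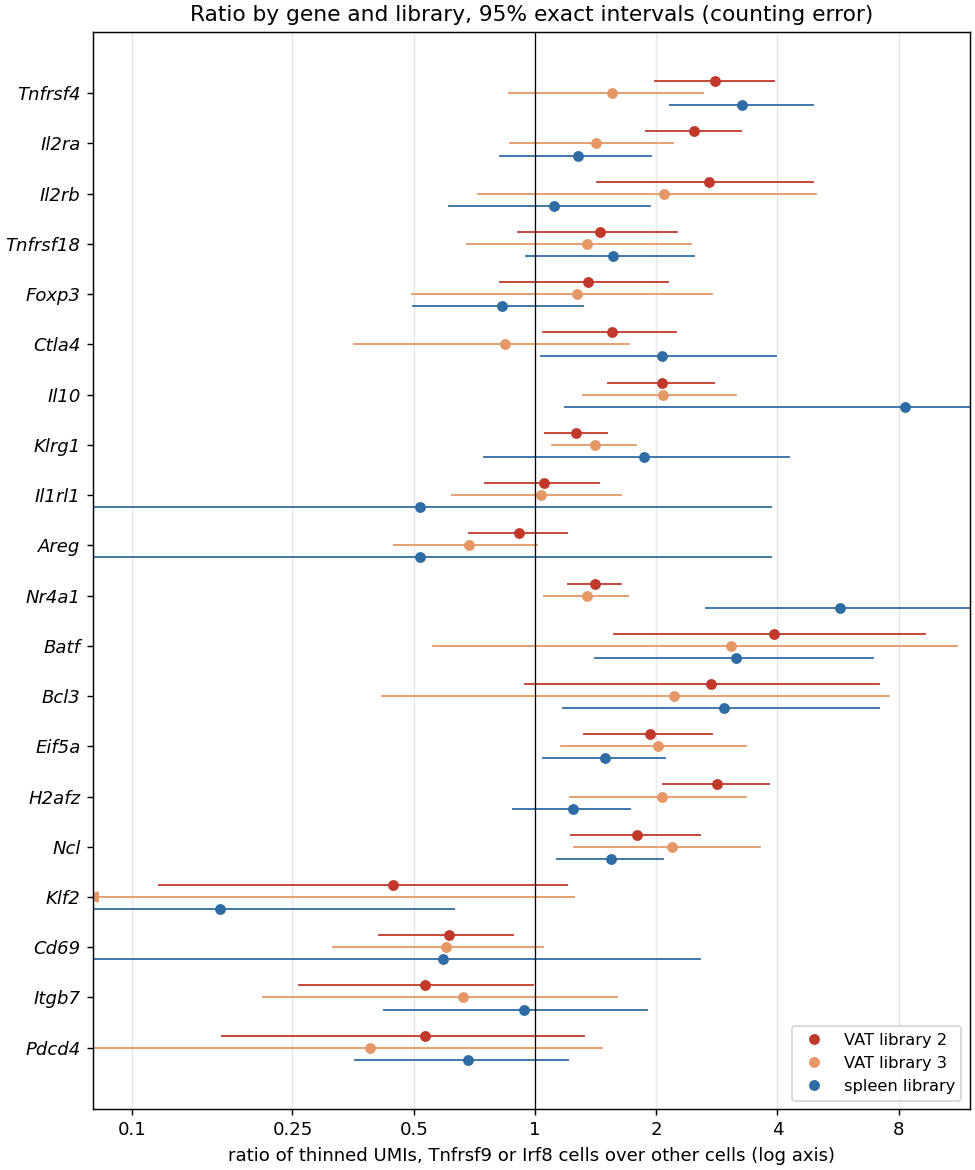
Ratio of thinned UMIs per gene, Tnfrsf9/Irf8 cells over other cells, on a log axis in VAT library 2, VAT library 3 and the spleen library; bars are 95% exact intervals of counting error, bars that reach the edge go on beyond it, and a triangle at the edge marks a ratio of 0. Tnfrsf4, Il10, Eif5a, H2afz and Ncl lie right of 1 in both VAT libraries, Il1rl1 lies at 1 (1.05 and 1.04), and Klf2, Cd69, Itgb7 and Pdcd4 lie left of 1.

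The Tnfrsf9/Irf8 cells were also split by the UMIs that chose them, which gives a description only. The 18 and 8 VAT cells with at least 2 UMIs of the pair were set against the 30 and 14 cells with exactly 1. Of the 769 genes, 74 (9.62%) passed the 1.5-fold rule on the higher side and 83 (10.8%) on the lower side in both libraries in this small comparison. The class with at least 2 UMIs was the deeper one before thinning, with medians of 2176.5 against 1654.5 UMIs in library 2 and 1909 against 1734.5 in library 3, and the part of depth was not tested. Tnfrsf4 stood at 25.7 against 7.08 UMIs per 10000 in library 2, a ratio of 3.63 (1.99 to 6.87). In library 3 it stood at 17.2 against 4.46, a ratio of 3.85 (1.23 to 14.1). The cells with exactly 1 UMI were near the cells with none, whose Tnfrsf4 level was 5.01 and 5.86. In the spleen library the ratio between these classes was 1.25 (0.664 to 2.35).

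Other genes were higher in the class with at least 2 UMIs in library 2, with intervals in library 3 that include 1. Il2ra stood at 34.7 against 12.1 per 10000 in library 2 (2.87, 1.78 to 4.71) and at 10.9 against 13.4 in library 3 (0.817, 0.282 to 2.13). H2afz gave 2.99 (1.77 to 5.14) and 0.942 (0.318 to 2.54), and Il10 gave 1.84 (1.08 to 3.15) and 1.09 (0.444 to 2.56). Nr4a1 gave 1.65 (1.25 to 2.17) and 1.18 (0.723 to 1.90). Cd44, a receptor of antigen-experienced T cells, gave 1.99 (1.14 to 3.48) and 1.75 (0.615 to 4.98). Whether the libraries differ in this respect was not tested.

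**Figure D4:**
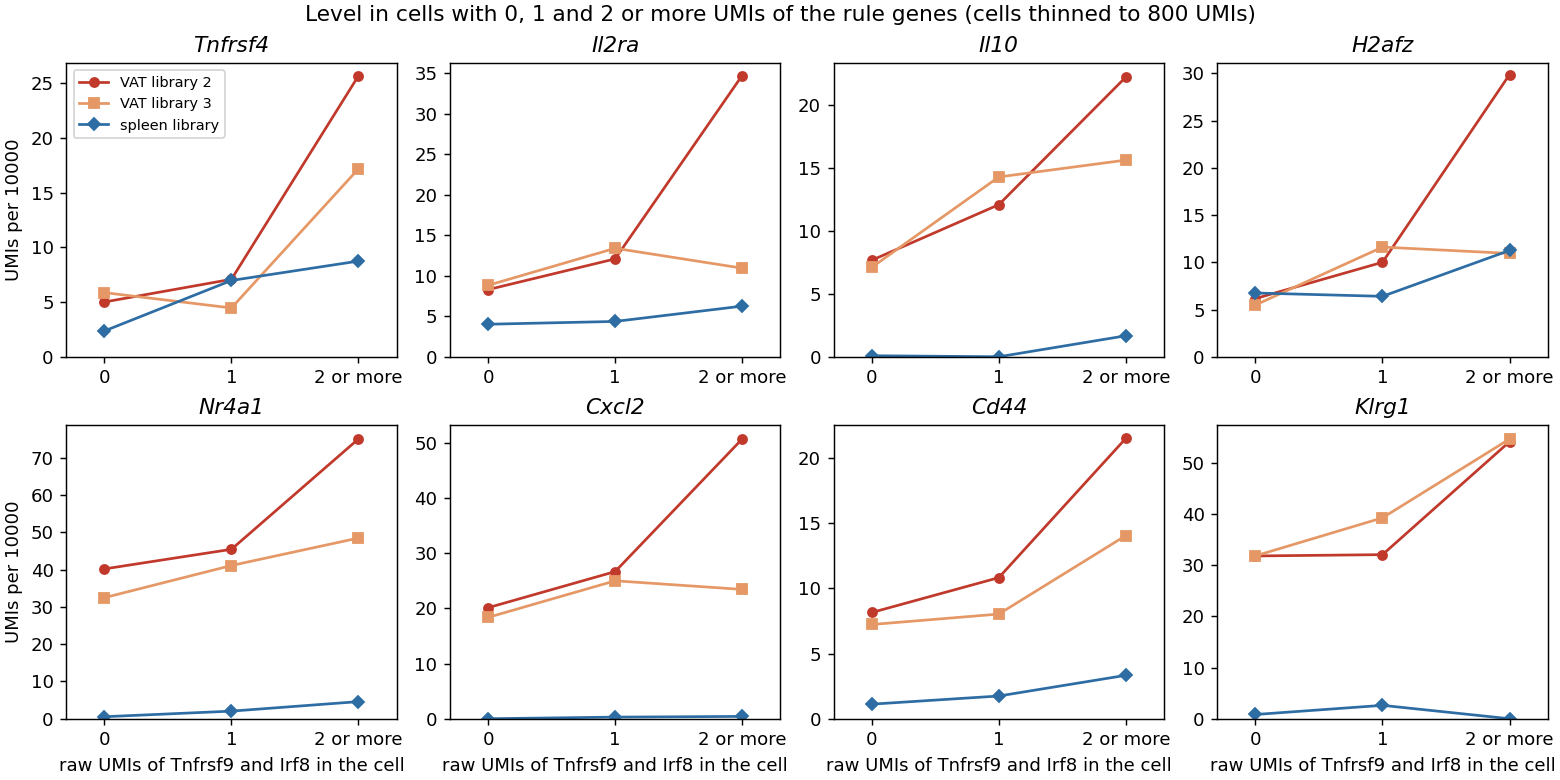
UMIs per 10000 of 8 genes in cells with 0, 1 and 2 or more raw UMIs of Tnfrsf9 and Irf8 together, in VAT library 2, VAT library 3 and the spleen library; the 3 classes hold 282, 30 and 18 cells in VAT library 2. Tnfrsf4 is highest in the class with 2 or more UMIs in both VAT libraries (25.7 and 17.2), and the step is larger in library 2 than in library 3 for Il2ra, H2afz, Nr4a1 and Cxcl2.

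The cells of the 2 rule genes were also set against each other. The 17 and 8 VAT cells with any Irf8 were compared with the 31 and 14 with Tnfrsf9 alone, and 63 of the 769 genes (8.19%) passed the 1.5-fold rule on the higher side and 76 (9.88%) on the lower side in both. Il2ra was among them, at 27.9 against 16.5 per 10000 in library 2 (1.69, 1.06 to 2.69) and at 20.3 against 8.04 in library 3 (2.53, 1.0 to 6.70). Tnfrsf4 gave 1.07 (0.585 to 1.92) in library 2 and 3.85 (1.23 to 14.1) in library 3. Klrg1 was lower in the cells with Irf8, with ratios of 0.770 (0.533 to 1.10) and 0.410 (0.217 to 0.728). Cd69 had 0 thinned UMIs in the cells with Irf8 of library 3, against 13 in the cells with Tnfrsf9 alone, and a ratio of 0.829 in library 2. The 3 UMI-rich cells with both genes in library 3 count among the cells with Irf8.

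The spleen cells taken by the same rule shared part of the pattern. Of 847 genes with at least 50 thinned UMIs there, 93 (11%) were past 1.5-fold on the higher side and 95 (11.2%) on the lower side in the spleen cells with Tnfrsf9 or Irf8. Of the 21 higher genes of VAT, 13 could be measured in spleen, where 5 were higher and 2 lower. Of the 24 lower genes of VAT, 15 could be measured, and 3 were lower and 3 higher. Tnfrsf4 stood at 7.71 against 2.36 UMIs per 10000 (ratio 3.27, 2.16 to 4.91) and Batf at 2.23 against 0.704 (3.16, 1.41 to 6.92). Bcl3 had a ratio of 2.95 (1.17 to 7.15), Eif5a one of 1.5 (1.05 to 2.10) and Klf2 one of 0.165 (0.0195 to 0.630).

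Other genes gave other values in spleen, differences that were not tested. Nr4a1 was scarce in spleen, at 3.08 against 0.538 per 10000, and had a ratio of 5.73 (2.65 to 12.7). Il2rb had a ratio of 1.12 (0.612 to 1.93) in spleen and H2afz one of 1.24 (0.885 to 1.72). Il10 was scarce, with 6 raw UMIs in the 73 spleen cells of the rule and 2 in the other spleen cells. Of those 6 UMIs, 5 lay in 1 cell, and without it the thinned ratio rested on 1 UMI (2.10, 0.0355 to 40.3). Ier3 and Mt2 had 0 UMIs in all spleen cells. Cd83, an activation marker, was found in 16.4% against 4.64% of spleen cells (ratio 3.72, 1.86 to 7.41) and had 1 raw UMI in the Tnfrsf9/Irf8 cells of each VAT library. The tissues also differ in dissociation, and tissue and dissociation cannot be told apart.

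**Figure D5:**
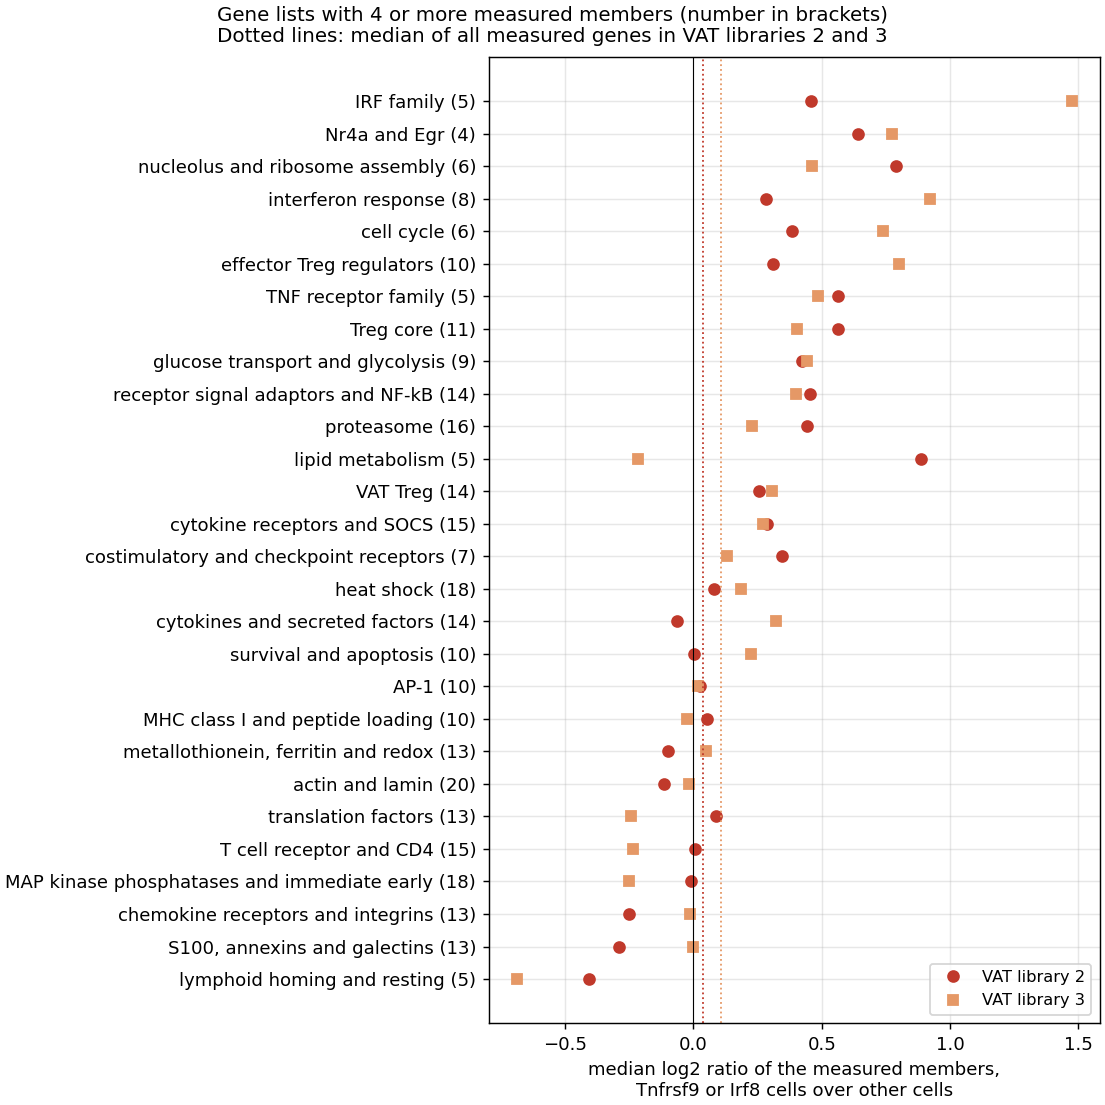
Median log2 ratio (0.5 added to each count) of the measured members of 28 gene lists, Tnfrsf9/Irf8 cells over other cells, in VAT libraries 2 and 3; dotted lines mark the medians of all 2081 measured genes (0.04 and 0.11). The lists of Nr4a and Egr, TNF receptors, Treg core genes and NF-kB lie right of the lines in both libraries. So do other lists, among them the IRF family, nucleolus, cell cycle, glycolysis and interferon response. The list of lymphoid homing and rest is among those left of 0.

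The gene lists with the highest medians had few measured members. The added 0.5 lifts the ratio of a scarce gene in the smaller group, and its part was not tested. The Nr4a and Egr list (4 measured) had medians of 0.64 in library 2 and 0.77 in library 3. Its summed UMIs, without the added 0.5, stood at 1.43 times (1.24 to 1.64) and 1.43 times (1.15 to 1.77) the level of the other cells. The IRF family list (5 measured, with Batf) had medians of 0.46 in library 2 and 1.47 in library 3. Its members were divided: 1 (Batf, an AP-1 factor) was called higher and 2 (Irf1 and Irf2bp2) were called lower in both libraries. Irf4, a factor of effector Tregs in this list, had ratios of 1.28 (0.379 to 3.43) and 4.68 (1.51 to 12.5). Of 8 measured interferon response genes 2 were higher and 0 lower, beside 5.14% and 8.89% of all genes, with medians of 0.28 and 0.92. Against cells matched for raw UMIs the mean of the 2 medians was -0.03. AP-1 genes had medians of 0.02 in both libraries, and MAP kinase phosphatases and immediate early genes had -0.01 and -0.25. Heat shock genes had 0.08 and 0.18, and genes of the T cell receptor and CD4 had 0.00 and -0.23. The lymphoid homing list had -0.41 and -0.69. Summed UMIs of S100, annexin and galectin genes stood at 0.827 times (0.765 to 0.893) the level of the other cells in library 2 and at 0.994 times in library 3.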

How the data were processed

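The deposited table holds UMI counts of single cells that were not normalized (23725 gene symbols, 13281 with a UMI). Per the submitters' processing notes, TopHat2 and SAMtools were used with build mm10. The cell filter and any doublet removal are not given in the sources used here, and no doublets were removed here.

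Cells held 887 to 3725 UMIs in VAT library 2, 916 to 4973 in VAT library 3 and 819 to 4244 in the spleen library. The Tnfrsf9 and Irf8 rows were removed, and each cell was thinned to 800 UMIs without replacement (numpy 2.4.6, seed 0). UMIs were summed over the chosen and the other cells of a library and divided by each group's total. Ratios carry exact conditional binomial 95% intervals (scipy 1.17.1); log2 ratios add 0.5 to each count. A gene was called when it was 1.5-fold higher or lower in both VAT libraries. No test was run, because the labels name no animals and cells are not replicates. The shares of cells taken by the rule have exact binomial intervals. Percentages of cells with a UMI of another gene have none.

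The members, the 36 gene lists and the rule for named genes were chosen with earlier results of these data known. Named were the 12 highest and 12 lowest genes, up to 3 members per list and a set of Treg and activation genes (113 in all), of which those that carry a result are printed. Nrp1, Irf2bp2, Cd27, Tnfrsf25 and the UMI-rich genes of single cells were named after their values were seen. Alternatives covered depth, draws, filters, fold, scaling, the rule and the cells used. The thinning and the calls were also run on simulated counts with 3-fold changes. Those counts were drawn without bunching in single cells, so that check cannot speak for bunched UMIs. Coordinates are 1-based, from GENCODE M21 on GRCm38 (mm10). Strand use in counting was not given, so overlapping genes may share reads. A marker of the B cell list is not reported here.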

Additional observations from a re-analysis of the deposited data

Results flagged for a closer look

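A total of 3 differences between tissues stood out. In each, both VAT libraries lay past 1.5-fold on one side and the spleen library past 1.5-fold on the other by the plain ratio; the difference between the tissues was not tested. Il7r was 1.82 and 1.59 times as high in the Tnfrsf9/Irf8 cells of VAT libraries 2 and 3, and its ratio in spleen was 0.644 (0.245 to 1.44), or -0.55 on the log2 scale with 0.5 added to each count. Its VAT call held in 9 of 16 alternatives, with 1.32 in library 3 against matched cells and 0.927 there without its top cell. Zc3h12a, which encodes an RNase that degrades inflammatory mRNAs, had ratios of 2.0 and 2.27 in the VAT libraries and 0.607 (0.291 to 1.15) in spleen, a log2 ratio of -0.67. Its VAT call held in 9 of 16 alternatives, with 1.34 in library 3 against matched cells. Rab2a had ratios of 0.445 and 0.218 in the VAT libraries and a log2 ratio of 1.07 in spleen; against spleen cells matched for raw UMIs its ratio was 0.847 (0.493 to 1.45).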

How the results depend on the processing

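The counts of genes higher and lower in both VAT libraries (21 and 24) moved with most choices. They were 33 and 70 at 400 UMIs per cell, 546 and 2743 with no minimum, 8 and 6 with a minimum of 200 UMIs, and 4 and 5 at 2-fold. With other cells taken, they were 40 and 67 for cells with Irf8, 45 and 79 for cells with 2 or more UMIs of the pair, and 44 and 57 among cells with Foxp3. They were 32 and 40 without cells that held B cell, antigen presenting or myeloid markers. The lower count was 39 for cells with Tnfrsf9 and 40 with the rule applied after thinning. In 1 library alone, without the other, the counts ranged from 82 to 109 higher and from 98 to 159 lower. Settings that leave fewer cells or UMIs called more genes. The share of cells chosen, 10.9% over both VAT libraries, was 4.04% with at least 2 UMIs and ranged from 7.01% to 14.5% in single libraries. The ratio of median UMIs per cell (1.15) ranged from 1.12 to 1.18.

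Of the 26 called genes followed over the settings, 6 changed side in 1 setting each by the mean log2 ratio of the VAT libraries. They were Cst3 (-0.0797, 2 or more UMIs), Foxo1 (0.10) and Tubb5 (-0.27) at 400 UMIs, and Lgals3 (0.0225, another draw). The others were Pdcd4 (0.24, cells with Irf8) and Pparg (-0.20, Foxp3 cells). In single libraries more called genes crossed 1. In library 3 the lowest ratio was 0.619 for Il2rb, 0.900 for Ncl and 0.487 for Il7r, and the highest was 1.25 for Dgka. The cause was not tested. By the same mean, 12 of the 23 followed genes with no call changed side in at least 1 setting, as did the medians of 16 of 31 lists.

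No paired analysis was possible because neither animals nor pairs of libraries are given in the labels. The main limit is depth: with 48 and 22 cells of 800 UMIs, a gene at 1 UMI per 10000 gives few UMIs per group. UMIs of a gene were bunched in single cells, so the intervals are too narrow. Each VAT library is 1 sample, and no result here was set against the spread between mice.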
